A study of Thermothelomyces thermophilus with 4 samples.

Results

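Of 9110 gene models of the thermophilic fungus Myceliophthora thermophila, 120 had a transcript level on flax straw well below that on each of the 3 other straws tested. Low is meant relative to the other straws, since 34 of the 120 were under 10 FPKM on at least 1 other straw too and 8 had at least 100 FPKM on flax. These flax-low genes were chosen from the measured values themselves. The rule worked on FPKM (reads scaled to gene length and to the size of the library) with 1 added. It required the mean over the 4 straws to reach 1 FPKM, and a flax value at most 0.5 times the lowest of oat, triticale and canola. Of the 8230 genes past the filter on the mean, 152 (1.85%) met the flax limit. The rule then set aside 12 that were at least 2-fold above every other straw on canola and 20 that were at least 2-fold higher on both cereal straws than on canola and flax, which left 120 (1.46%).

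Mycelium was grown at 45 °C in shaken defined medium with a single crop straw as the carbon source, and poly(A) RNA was sequenced. Harvest was at 24 h for flax, at 24 h for oat and triticale, and at 30 h for canola. Each straw had 1 library, so no difference has a replicate check and none carries a p-value. For canola, the straw and the later harvest cannot be told apart. Every contrast of flax with another straw uses the same flax library and was used by the rule, so all levels below are descriptions and not tests.

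Straw consists mainly of cellulose, hemicelluloses and lignin. Filamentous fungi degrade it with secreted hydrolases and oxidative enzymes, and transcription of the genes for these enzymes is known to respond to sugars released from the cell wall and to be repressed by readily used sugars such as glucose. Oat and triticale are grasses, canola and flax are dicots, and flax is also grown for the cellulose-rich bast fibres of its stem. Only 1 of the 120 genes carried a gene symbol in RefSeq, cbdA, which encodes cellobiose dehydrogenase, a secreted oxidoreductase that oxidises cellobiose and can pass electrons to lytic polysaccharide monooxygenases. The other 119 are given by locus tag or model number, with no role stated.

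Reads assigned to gene models, recovered from FPKM and gene length, came to 7955444 for flax, 7308467 for oat, 6495371 for triticale and 7977329 for canola. The 95% intervals given below are exact and cover counting error only. Among the 8230 tested genes the median was 21.8 FPKM on flax, 21.5 on oat, 16.6 on triticale and 22.2 on canola. FPKM is scaled to library size, so these medians cannot show whether flax RNA as a whole was low. In bulk RNA, fewer cells making a transcript and less transcript per cell cannot be told apart.

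As a group, the 120 flax-low genes took 0.557% of reads on flax, against 2.48% on oat, 2.23% on triticale and 1.85% on canola. Their median level was 8.87 FPKM on flax, 32.1 on oat, 29.0 on triticale and 35.0 on canola. The medians on the 3 other straws were thus close to each other, though single genes could differ. The rule favours such closeness, since it set aside genes with a canola or a cereal pattern. Set against the lowest other straw, on the scale of FPKM + 1, the median gene was 2.62-fold lower on flax, and the range ran from 2.00-fold to 35.8-fold. The corresponding median over all tested genes was a flax value 1.36 times that of the lowest other straw. By rank, 41 of the 120 lay below the median gene of the flax library and above the median gene of each other library, and 201 of the 8230 tested genes (2.44%) did so.

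**Figure D1:**
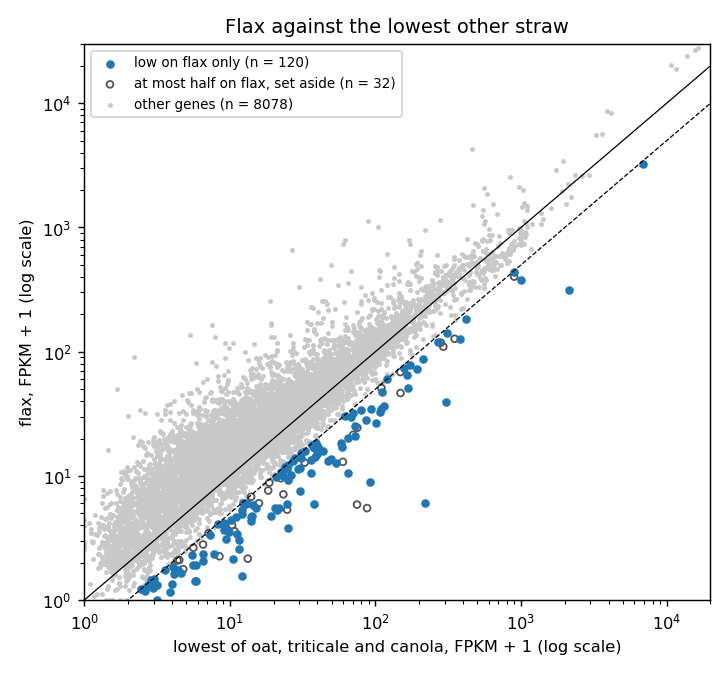
Flax FPKM + 1 against the lowest of oat, triticale and canola, FPKM + 1, both on log scales, with 1 point per tested gene. The solid line marks equal values and the dashed line 0.5 times the lowest other straw. The 120 flax-low genes (blue) lie on or below the dashed line, as do the 32 set aside (open circles).

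The size of the gap depends on the scale for genes of low level. On the scale of FPKM + 1, at most 0.25 times the lowest other straw were 16 of the 120, against 0.255% of all tested genes, and 2 were at most 0.125 times, against 0.0486%. For single straws on that scale, 45 of the 120 were at most 0.25 times the oat value (1.32% of all tested genes), 36 at most 0.25 times the triticale value (1.19%) and 48 at most 0.25 times the canola value (1.75%). As plain ratios of FPKM the numbers were larger. At most 0.25 times the lowest other straw were then 40 of the 120 (0.656% of all tested genes), and 11 were at most 0.125 times (0.231%). At most 0.25 times the single straw were 66 for oat (2.07%), 63 for triticale (1.79%) and 71 for canola (2.78%). The rule used these contrasts, so the shares describe how far the chosen genes lay beyond the limit.

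MYCTH_2309660 had the widest gap on the scale of FPKM + 1, by which genes are ranked here, with 5.07 FPKM on flax (95% counting interval 3.58 to 6.95), against 216 on oat, 365 on triticale and 318 on canola. By the ratio of FPKM it was 42.7-fold lower on flax than on oat, the lowest other straw (31.0 to 60.6). In rank it stood at percentile 14.3 of the tested genes on flax and at percentiles 94.7 to 96.5 on the other straws. MYCTH_112051 followed on the scale of FPKM + 1, with 7.88 FPKM on flax, against 91.1 on oat, 92.2 on triticale and 147 on canola, and its FPKM was 11.6-fold lower on flax than on oat (9.59 to 14.03). These were the 2 genes at most 0.125 times every other straw with 1 added to FPKM, and they lie near each other in the genome, as described below.

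MYCTH_89872 and MYCTH_2314963 were abundant genes with a similar order of straws. MYCTH_89872 had 38.5 FPKM on flax, against 332 on oat, 684 on triticale and 304 on canola. MYCTH_2314963 had 311 FPKM on flax, against 2455 on oat, 4425 on triticale and 2121 on canola. Both were highest on triticale and lowest on flax, 7.90-fold (6.73 to 9.31) and 6.83-fold (6.48 to 7.20) below canola. Without the oat library both left the set, since triticale, then the only cereal, was at least 2-fold above canola. MYCTH_2314963 still stood at percentile 96.1 of the flax library, so low on flax is not low in absolute terms for this transcript.

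Some of the genes with wide gaps had very few reads on flax. Model 2308381 had 0.562 FPKM on flax, from 9 reads, against 27.3 on oat, 13.8 on triticale and 11.2 on canola, and its plain FPKM ratio, 19.8-fold below canola, was wider than that of MYCTH_112051. Model 2302953 had 1.56 FPKM on flax, against 27.5 on oat, 13.6 on triticale and 10.5 on canola. Both were highest on oat and had about the same order of straws, and these are the only 2 of the 120 models that matched no RefSeq locus tag. MYCTH_2299915 had 1.13 FPKM on flax, against 10.7 on oat, 9.57 on triticale and 19.8 on canola, and was the third widest of the genes highest on canola.

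Further genes with wide gaps covered a range of levels. MYCTH_52332 had 2.83 FPKM on flax, against 40.7 on oat, 24.3 on triticale and 29.1 on canola. MYCTH_112714 had 4.91 FPKM on flax, against 36.6 on oat, 46.8 on triticale and 89.3 on canola. MYCTH_104827 had 9.46 FPKM on flax, against 118 on oat, 68.0 on triticale and 63.6 on canola. MYCTH_52332 and MYCTH_104827 were highest on oat and MYCTH_112714 on canola, and in all 3 the flax value was under 0.25 times every other straw. MYCTH_40719 had 11.7 FPKM on flax, against 94.1 on oat, 52.3 on triticale and 88.5 on canola. MYCTH_2140323 had 4.96 FPKM on flax, against 23.9 on oat, 38.4 on triticale and 23.7 on canola. MYCTH_2302949 had 3.71 FPKM on flax, against 18.3 on oat, 21.6 on triticale and 20.1 on canola. The last of these was nearly level over the other straws, with a highest-to-lowest ratio of 1.17 on the scale of FPKM + 1.

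**Figure D2:**
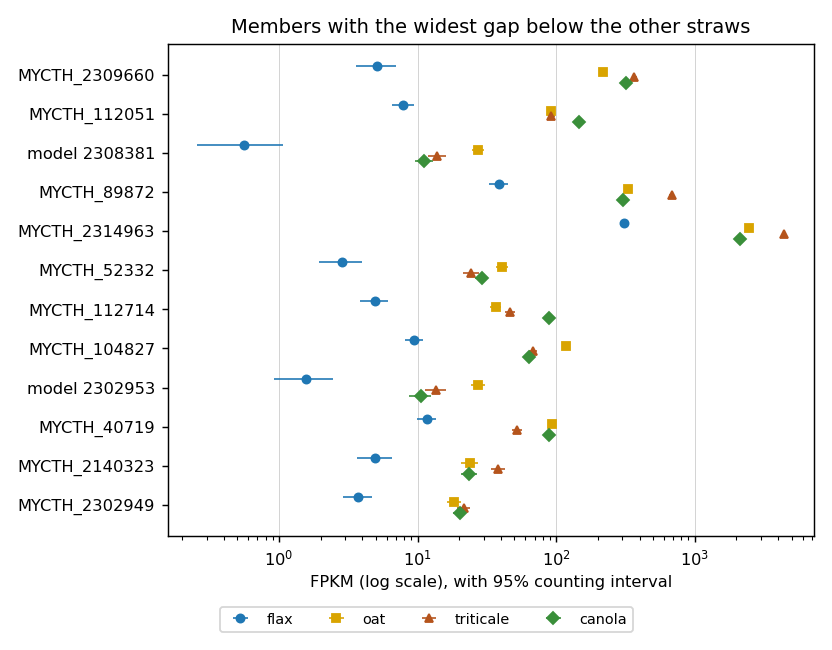
FPKM on a log scale for the 12 flax-low genes with the widest gap to the lowest other straw and at least 10 FPKM on each other straw. Points are single libraries and bars the 95% counting interval. The flax point lies left of the other 3 in every row by 4.09-fold or more on the scale of FPKM + 1.

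The 6 most abundant flax-low genes, ranked by their mean over the other straws, took 51.1% of the group's reads on flax, 49.0% on oat, 54.9% on triticale and 42.7% on canola. MYCTH_2307942, a short model of 301 bases, had 3259 FPKM on flax, against 6909 on oat, 11841 on triticale and 7739 on canola. It was just past the limit, 2.12-fold lower on flax than on oat (95% counting interval 2.06 to 2.18), and stood at percentile 99.87 or higher in every library. It left the set when the trend with expression level was removed, with a log2 ratio of -0.68. MYCTH_109566 had 434 FPKM on flax, against 2567 on oat, 1323 on triticale and 896 on canola. MYCTH_112089 had 380 FPKM on flax, against 1943 on oat, 1453 on triticale and 1005 on canola. These 2 genes shared an order of straws, highest on oat and lowest on flax, and were 2.07-fold (2.01 to 2.13) and 2.65-fold (2.55 to 2.75) lower on flax than on canola.

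The transcript of cbdA (MYCTH_111388) had the same order, with 119 FPKM on flax (115 to 123), against 807 on oat (795 to 818), 498 on triticale (489 to 508) and 267 on canola (261 to 273). It was 2.24-fold lower on flax than on canola (2.15 to 2.34). The lower cereal value of cbdA was 1.86 times the canola value on the scale of FPKM + 1, close to the limit of 2 at which it would have been set aside as a cereal pattern. With the libraries centred on their medians, scaled to their upper quartiles or corrected for the trend with gene length, cbdA was not among the flax-low genes, nor was it without the triticale library. MYCTH_109566 left the set under upper-quartile scaling, under correction for the trend with expression level and without the triticale library.

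Of the other abundant genes, MYCTH_2307937 had 181 FPKM on flax, against 492 on oat, 827 on triticale and 420 on canola. MYCTH_2314077 had 126 FPKM on flax, against 427 on oat, 382 on triticale and 765 on canola. The first was highest on triticale and the second on canola, so the abundant flax-low genes had no common order over the other straws. MYCTH_2314077 was 3.03-fold lower on flax than on triticale (2.78 to 3.29) and stayed in the set under all 16 alternative settings tried. Several of these settings only loosen the rule and could not remove any gene.

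**Figure D3:**
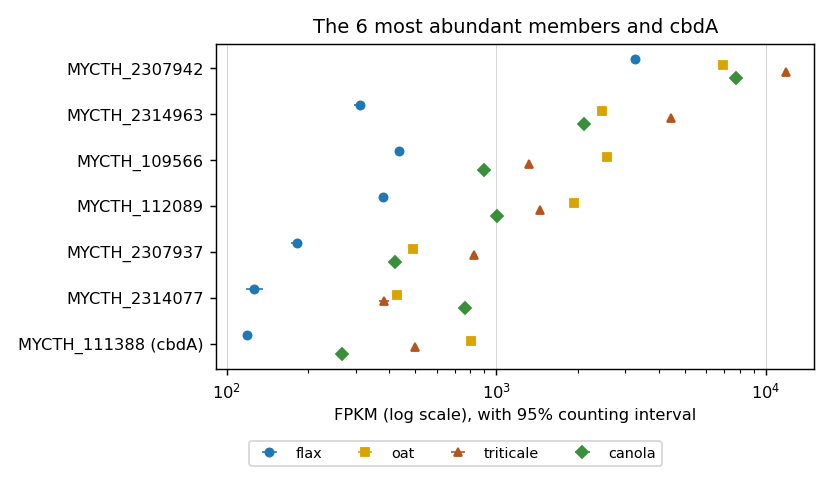
FPKM on a log scale for the 6 most abundant flax-low genes and cbdA, with 95% counting intervals, which are mostly smaller than the symbols. Flax values run from 119 to 3259 FPKM. The highest straw is oat for MYCTH_109566, MYCTH_112089 and cbdA, triticale for MYCTH_2307942, MYCTH_2314963 and MYCTH_2307937, and canola for MYCTH_2314077.

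Among the 5 tested genes with a symbol, cbdA was the only one at most 0.5 times every other straw on flax. The ganA transcript, for an endo-galactanase that cuts pectic galactan, had 91.5 FPKM on flax, against 142 on oat, 131 on triticale and 275 on canola. The gla1 transcript, for the starch-degrading glucoamylase, had 22.7 FPKM on flax, against 36.9 on oat, 20.3 on triticale and 83.7 on canola. So ganA was lowest on flax without reaching the limit, and gla1 was lowest on triticale. The other two, cat1 (a catalase) and phy1 (a phytase), were highest on flax, and cat1 alone was at least 2-fold above every other straw, which 123 of the 8230 tested genes (1.49%) were. The median of the 5 genes was a log2 ratio of flax to the lowest other straw of 0.15, against 0.44 over all tested genes. The laccase gene lcc1 was below the filter.

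The rule left the order of the other straws partly free, and the flax-low genes divided among all 3, as all tested genes did. Canola was the highest for 45 of the 120 (37.5%, against 43.1% of all tested genes). Oat was the highest for 38 (31.7%, against 25.7%) and triticale for 37 (30.8%, against 31.2%). The 45 highest on canola had medians of 7.88 FPKM on flax, 23.7 on oat, 23.3 on triticale and 35.0 on canola. For the 38 highest on oat the medians were 8.86 FPKM on flax, 40.0 on oat, 24.1 on triticale and 37.8 on canola. For the 37 highest on triticale they were 9.80 FPKM on flax, 37.4 on oat, 47.9 on triticale and 32.0 on canola. The flax medians of these classes were thus within 2 FPKM of each other. Median gaps to the lowest other straw were also alike, at 2.61-fold, 2.73-fold and 2.48-fold in the same order.

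Differences among oat, triticale and canola were small for most of the 120, as they were for most tested genes. All 3 lay within 1.5-fold of each other for 48 genes (40%, against 41.3% of all tested genes). They lay within 2-fold for 91 (75.8%, against 68.7%), while 4 were over 3-fold apart (3.33%, against 13%). Canola was at least 2-fold over oat for 6 of the flax-low genes (7.23% of all tested genes) and at least 2-fold over triticale for 8 (24.6%). Oat was at least 2-fold over canola for 10 (2.60%) and over triticale for 7 (14.2%), and triticale was at least 2-fold over canola for 4 (3.13%) and over oat for 4 (0.352%). The rule itself removes many genes with such differences, so these shares show what remained and not a property of the genes.

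The 48 near-level genes were low in general, with medians of 4.20 FPKM on flax, 15.8 on oat, 15.4 on triticale and 16.7 on canola. MYCTH_106768 was one of the abundant ones, with 71.0 FPKM on flax, against 214 on oat, 191 on triticale and 198 on canola. MYCTH_46583 had 140 FPKM on flax, against 373 on oat, 308 on triticale and 351 on canola. MYCTH_80304 had 15.6 FPKM on flax, against 39.3 on oat, 37.2 on triticale and 37.6 on canola. In these 3 the other straws differed by at most 1.21-fold on the scale of FPKM + 1, and flax stood 2.20-fold to 2.66-fold below them. They were picked from the near-level genes after their values were seen.

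At the other end, the 4 genes over 3-fold apart were MYCTH_2133773, MYCTH_55581, MYCTH_58882 and cbdA. MYCTH_2133773 had 1.36 FPKM on flax, against 5.59 on oat, 23.3 on triticale and 39.8 on canola. MYCTH_55581 had 8.26 FPKM on flax, against 89.9 on oat, 24.0 on triticale and 43.8 on canola. MYCTH_58882 had 10.4 FPKM on flax, against 73.9 on oat, 23.7 on triticale and 57.1 on canola. The last 2 were highest on oat with triticale next to flax at the low end, whereas MYCTH_2133773 was highest on canola with oat next to flax.

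**Figure D4:**
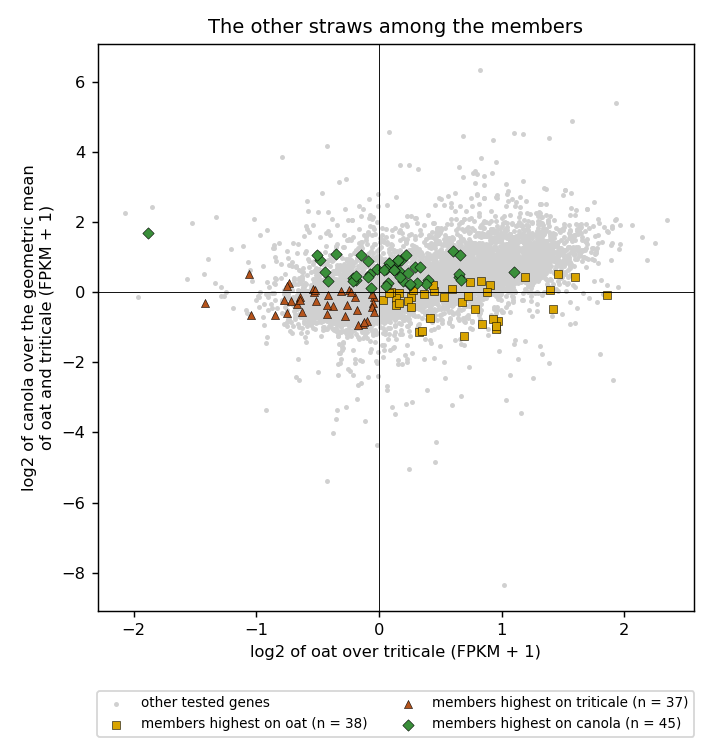
For each tested gene, the log2 ratio of oat to triticale (x axis) and of canola to the geometric mean of oat and triticale (y axis), on the scale of FPKM + 1. Flax-low genes are coloured by the highest of these 3 straws (38 oat, 37 triticale, 45 canola) and other tested genes are grey. The coloured points surround the origin, with MYCTH_2133773 apart at the upper left.

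Flax-low genes were shorter than tested genes in general. Their median length was 1248.5 bases (25th to 75th percentile 768 to 1828), against 1797 (1232 to 2499) for all tested genes. Of the 120, 59 fell in the shortest 25% of tested genes, 27 and 26 in the next classes of the same size, and 8 in the longest 25%. The classes by highest straw also differed in length, with medians of 851 bases for the genes highest on triticale, 1213 for canola and 1734 for oat. Over all tested genes the order was the same, at 1478, 1879 and 2032 bases. With the trend with gene length removed from each library, the set held 143 genes, 118 of the 120 among them. The part of gene length in the flax differences was not tested.

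In RefSeq gene order, 12 of the 118 placed flax-low genes (10.2%) had another flax-low gene as the next gene, and 2.48% of the 8210 placed tested genes had a flax-low gene next to them. The 12 formed 6 pairs and no run of 3. In none of the 6 pairs did the RefSeq spans overlap. Over all 118, 3 (2.54%) overlapped a neighbouring span, against 5.35% of placed tested genes. No label describes the kit as strand-specific, so for the 3 genes any reads from the overlapping stretch may come from either gene.

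The most abundant pair was MYCTH_2307937 and MYCTH_2307942, described above. The next gene, MYCTH_2307943, had 151 FPKM on flax, against 201 on oat, 345 on triticale and 256 on canola. It had the order of straws of MYCTH_2307942 but missed the limit, with flax at 0.751 times oat. On the other side, MYCTH_2307935 had 8.83 FPKM on flax, against 6.43 on oat, 2.71 on triticale and 5.78 on canola, and so was highest on flax.

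The pair MYCTH_89872 and MYCTH_40719 combined wide gaps with different orders, highest on triticale for the first and on oat for the second. On one side of the pair MYCTH_39694 had 4.94 FPKM on flax, against 6.10 on oat, 4.90 on triticale and 15.6 on canola. On the other MYCTH_2298452 had 32.4 FPKM on flax, against 66.3 on oat, 41.7 on triticale and 50.7 on canola. Neither neighbour came near the limit, with flax at 1.01 and 0.783 times the lowest other straw on the scale of FPKM + 1.

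A further pair was MYCTH_103032 and MYCTH_2305738. MYCTH_103032 had 33.5 FPKM on flax, against 120 on oat, 108 on triticale and 213 on canola. MYCTH_2305738 had 25.5 FPKM on flax, against 100.2 on oat, 107 on triticale and 193 on canola. Both were highest on canola and had similar levels on each straw, and MYCTH_2305738 was 3.81-fold and MYCTH_103032 3.15-fold below the lowest other straw. The gene before them, MYCTH_2305732, was level between flax and oat, with 93.6 FPKM on flax, against 93.5 on oat, 130 on triticale and 115 on canola. On the other side, MYCTH_2305739 had 5.99 FPKM on flax, against 9.10 on oat, 7.95 on triticale and 20.8 on canola. Like the pair it was lowest on flax and highest on canola. It missed the limit, with flax at 0.781 times triticale on the scale of FPKM + 1. Beyond it, MYCTH_2305741 had 9.02 FPKM on flax, against 4.84 on oat, 2.08 on triticale and 8.73 on canola.

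MYCTH_2305390 and MYCTH_111372 differed in level. MYCTH_2305390 had 1.32 FPKM on flax, from 8 reads, against 8.83 on oat, 9.74 on triticale and 4.46 on canola. MYCTH_111372 had 73.1 FPKM on flax, against 414 on oat, 157 on triticale and 265 on canola. The first left the set when genes needed a mean of 10 FPKM, with a pseudocount of 5 or 10, with a fold limit of 3 or when the counting bound had to be at most 0.5. The second left it when the trend with expression level was removed (log2 ratio -0.93), with a fold limit of 3 or under the counting bound. The remaining pairs, MYCTH_2297794 with MYCTH_92165 and MYCTH_2310691 with MYCTH_98002, had mean levels of 6.07 and 5.41 FPKM over both genes and the 4 libraries.

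MYCTH_112051 and MYCTH_2309660, the 2 genes with the widest gaps, were separated by 3 genes. All 3 were low, and none was among the flax-low genes. MYCTH_2309656 had 2.77 FPKM on flax, against 4.07 on oat, 5.77 on triticale and 6.63 on canola, and the 2 others were under 2 FPKM on every straw. Beyond MYCTH_2309660, MYCTH_83083 had 223 FPKM on flax, against 122 on oat, 157 on triticale and 152 on canola, so a gene highest on flax lay beside the one with the widest gap below the other straws. On the far side of MYCTH_112051, beyond MYCTH_2120482, MYCTH_54058 had 4.34 FPKM on flax, against 888 on oat, 749 on triticale and 23.8 on canola, and was one of the 20 genes set aside for a cereal pattern.

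**Figure D5:**
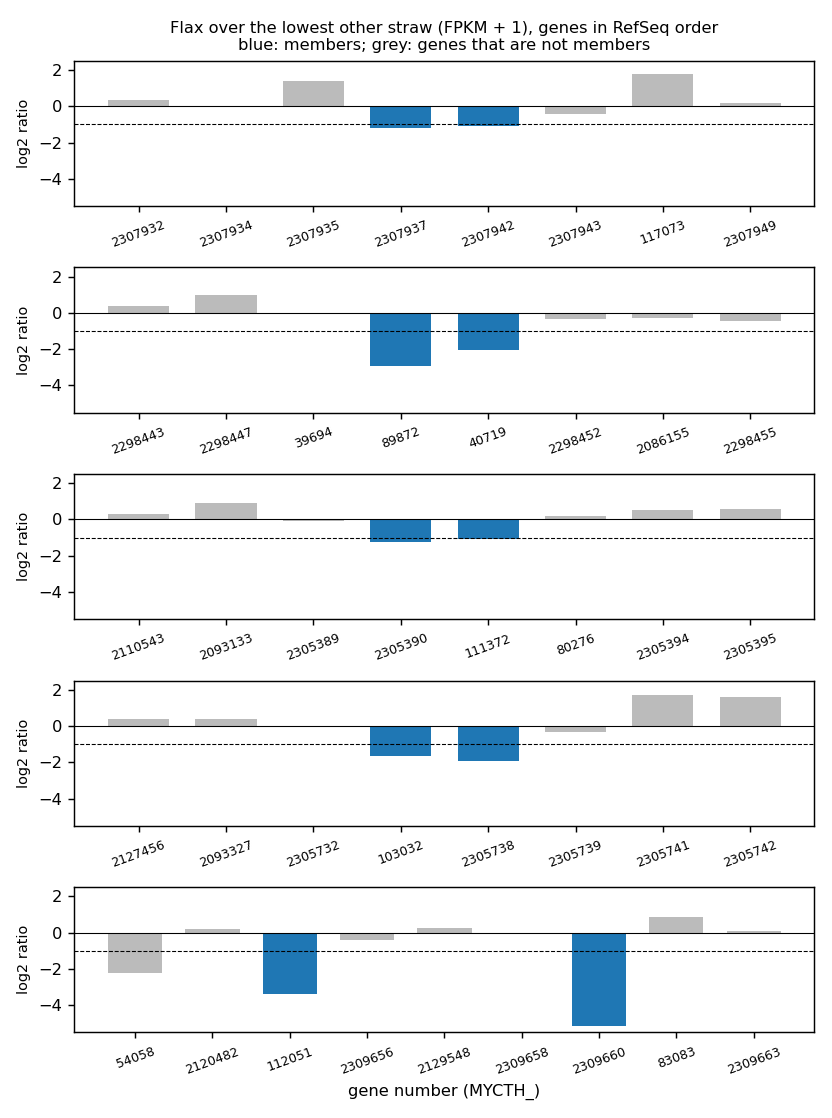
The log2 ratio of flax to the lowest other straw, on the scale of FPKM + 1, for genes in RefSeq order around 4 pairs of neighbouring flax-low genes (upper panels) and around the 2 genes with the widest gaps (lowest panel). Flax-low genes are blue, other genes are grey, and the dashed line marks a log2 ratio of -1. Outside the blue bars the bar of MYCTH_54058 alone passes the line.

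Counting error limited the weakest members of the set. On flax 81 of the 120 had at least 30 reads, 12 had at most 3 reads, and 1, MYCTH_2302978, had 0 reads against 8 on oat, 5 on triticale and 7 on canola. The upper 95% counting bound of the FPKM ratio of flax to the lowest other straw was under 1 for 117 genes and at most 0.5 for 74. The genes were chosen for low flax values in these same counts, so a bound under 1 was largely built in. The share of all tested genes with such a bound is not given here. The 3 genes without a bound under 1, MYCTH_2312073, MYCTH_2310588 and MYCTH_2130172, had 2, 1 and 1 reads on flax. The intervals cover counting error only, so they do not show for any of the 120 whether a difference between straws would recur.

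The limit of 0.5 ran through a continuous range of values. Just inside it were MYCTH_2305422 (14.2 FPKM on flax, against 39.4 on oat, 41.0 on triticale and 29.8 on canola), MYCTH_2312918 (58.8 on flax, against 119 to 177 on the others), MYCTH_2130172 and MYCTH_2109123. Just outside it were MYCTH_2302235 (2.89 FPKM on flax, against 6.77 on oat, 10.1 on triticale and 11.96 on canola), MYCTH_2298488 (7.54 on flax, against 16.0 to 20.8 on the others), MYCTH_2305962 and MYCTH_2307990. On the scale of FPKM + 1 the first 4 were 2.00-fold to 2.02-fold and the other 4 were 1.98-fold to just under 2-fold below the lowest other straw.

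Set beside the 120, the genes left out of the flax-low set by the rule had other profiles by construction. The 20 with a cereal pattern had medians of 10.2 FPKM on flax, 257 on oat, 220.4 on triticale and 34.3 on canola. The 12 with a canola pattern had medians of 2.13 FPKM on flax, 10.7 on oat, 12.6 on triticale and 36.1 on canola. Their median gaps to the lowest other straw, 2.65-fold and 2.28-fold, were of the size found for the 120.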

How the data were processed

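One RNA library per straw was analysed (flax, oat, triticale, canola). The authors deposited a table of FPKM values for 9110 gene models, and per the file headers the other column is gene length in bases. For aligner, counter, genome build and annotation, the entry is: not given in the sources used here. FPKM times length divided by 1000 summed to 1000000 per library, and 100% of these products were whole multiples of the smallest one (tolerance 0.001), so reads per gene were recovered. At the median length of 1733 bases, 3 reads (what a count of 0 allows) came to 0.218 FPKM on flax, 0.237 on oat, 0.267 on triticale and 0.217 on canola.

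Values were compared on the scale of FPKM + 1, which understates differences of low genes, among 8230 models with a mean of at least 1 FPKM. Single genes have exact Poisson intervals and exact Clopper-Pearson intervals of FPKM ratios (95%), which cover counting error only, since reads without molecular identifiers are not independent molecules. With 1 library per straw no test was run. The numbers of 9087 models matched RefSeq locus tags (assembly ASM22609v1 of strain ATCC 42464), used for names, gene order and span overlap only. The 11 planned gene lists by product text were not searched, as no product names were available. Protein signatures, hydrophobic N-termini, homologues and promoter motifs were not analysed here, as no sequences were used. Genes are named for gap width (12), abundance (6), nearness to the limit (4 on each side), a symbol, neighbouring pairs (4) and the widest gap by highest straw (3 each), with exceptions stated. The genes, lists and rule were chosen with earlier results of these data known. The rule, the intervals and the trend removal (lowess, fraction 0.3) were tested on simulated data. Python 3.11.15, pandas 2.3.3, scipy 1.17.1 and statsmodels 0.14.6 were used.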

Additional observations from a re-analysis of the deposited data

How the results depend on the processing

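The 120 genes became 66 with a pseudocount of 5 and 47 with 10, 289 and 44 with fold limits of 1.5 and 3, and 74 when the upper counting bound had to be at most 0.5. With 1 other library left out the count was 129 to 279, the highest without canola, where no gene could be set aside. All 120 were in the sets without canola and at a fold limit of 1.5, because both settings only loosen the rule. Dropping the filter and keeping the genes set aside likewise could not remove any of the 120. The count was 91 to 159 under the other settings: a pseudocount of 0.1, no filter or a mean of 10 FPKM, median centring, upper-quartile scaling, removal of trends with length or expression, and genes set aside kept. Of the 120, 105 stayed under both scalings and both trend removals, and 42 also under all 3 pseudocounts.

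The sets' share of reads on flax, oat, triticale and canola was 0.566%, 2.38%, 2.18% and 1.98% under median centring, and 0.428%, 1.69%, 1.79% and 1.59% under upper-quartile scaling. It was 0.591%, 2.43%, 2.23% and 2.05% without the length trend, and 0.380%, 1.94%, 1.69% and 1.48% without the expression trend. The median log2 ratio of flax to the lowest other straw, -1.39, was -1.64, -1.05 and -0.82 with pseudocounts of 0.1, 5 and 10, and -1.54 to -1.45 with 1 library left out. For the 27 flax-low genes that the rule for named genes picked, all 270 values under alternatives were below 0, and 251 were at most -1. These genes were chosen for low ratios in the same libraries, so the counts are no independent check. Median centring removed 0.09 (log2) from flax, 0.07 from oat, -0.28 from triticale and 0.12 from canola. Within 5 genes on either side, 25.4% of flax-low genes had another, against 11.3% of tested genes. Skipping genes below the filter gave 11.9%, against 2.83% of tested genes. The hydropathy and BLASTP alternatives were not run, since no protein sequences were used. No paired analysis was possible because each straw has 1 library. Depth limits the 12 genes with at most 3 flax reads.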

Other observations

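Over all tested genes, the share at most 0.5 times every other straw on flax differed with gene length. It was 3.69% of the 2061 genes in the shortest 25%, 1.80% and 1.41% in the next classes, and 0.486% of the 2058 genes in the longest 25%. The share at least 2-fold above every other straw on flax was 1.75%, 1.12%, 2.04% and 1.07% in the same order, with no such gradient. The median FPKM ratio of flax to oat was 1.03, 1.04, 1.04 and 1.01 over these classes and that of flax to canola 1.04, 0.986, 1.01 and 1.01. The ratio of flax to triticale was 0.941, 1.15, 1.27 and 1.36, the widest range of the 3 ratios. These are values of single libraries, with no test.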
